A study of Mus musculus with 12 samples.

Results

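The 9 genes described here make, desaturate, elongate and store fatty acids: Srebf1, Acly, Acaca, Fasn, Scd1, Scd2, Elovl5, Elovl6 and Plin2. They were taken by gene symbol from 2 deposited count tables, 1 of females and 1 of males, which list the same 55385 genes, and all 9 were found in both. The 12 libraries come from satellite cells, the muscle stem cells, of hindlimb muscle of C57BL/6J mice, frozen directly after isolation, so that no culture step lies between the muscle and the RNA. In each sex 3 libraries carry a Hetz label for Keap1, which the genotype field spells "heterogeneous" and which is read here as heterozygous, and 3 carry a Keap1 KO label. On that reading every control library also comes from cells with a changed Keap1 allele, and no wild-type group is analysed here. The Cre driver, the age of the mice and any treatment are not given in the sources used here. The study asked how KEAP1, the adaptor that marks the transcription factor NRF2 for degradation, acts in muscle stem cells of each sex. Libraries are named by genotype and label number, for example Hetz164 or KO166. The labels do not say that each number is 1 mouse, so p-values measure the spread between these libraries, which may in part be technical.

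In the cytosol, ATP citrate lyase splits citrate into acetyl-CoA, acetyl-CoA carboxylase turns that into malonyl-CoA, and fatty acid synthase builds palmitate from both with NADPH. ELOVL enzymes then lengthen the chain and stearoyl-CoA desaturases set its first double bond, while surplus fatty acid is stored as triglyceride in droplets coated by perilipins. SREBP1, the product of Srebf1, switches on most of these genes together, and in quiescent muscle stem cells lipid droplets and fatty acid oxidation are known to be part of the metabolic state.

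Total counts ran from 13042039 to 19273245 fragments per library, and the 9 genes held between 147 and 3108 fragments each in every library. Keap1 itself, counted over all exons, measured 8.18 ± 1.21 CPM (counts scaled to a common library size with TMM factors, SD, n = 3) in female Hetz, 11.9 ± 0.922 in female KO, 7.79 ± 2.36 in male Hetz and 7.29 ± 0.796 in male KO libraries. Each female KO-labelled library was above each Hetz one (exact two-sided permutation test, p = 0.1, the smallest that 3 against 3 allows), at a log2 fold change of 0.54 that did not pass edgeR's test (adjusted p = 0.186), and in males the groups overlapped (exact permutation p = 0.8). A count over all exons cannot check the deletion of some of them, so the libraries are called KO-labelled. All 10 satellite cell markers looked at, Pax7 and Myf5 among them, were above 1 CPM in some library and all 10 passed the count filter, with summed levels of 13190 to 14580 CPM in female Hetz, 9061 to 11510 in female KO, 17700 to 20820 in male Hetz and 18820 to 20190 in male KO libraries. Fibro-adipogenic markers summed to 2905 to 7078 CPM over the 12 libraries and pericyte markers to 329 to 660 CPM. Leukocyte markers summed to 89.6 to 130 CPM in female Hetz and 38.2 to 59.9 CPM in female KO libraries. Endothelial markers summed to 57.6 to 94.4 CPM in females and 133 to 358 CPM in males, and Schwann cell markers to 148 to 361 CPM over all. Of the Schwann cell markers, 1 of 9 tested in females, Ptprz1, fell by edgeR's test, against 2.27% of all genes in either direction. Females and males were counted in separate tables, so sex and any batch of preparation cannot be told apart.

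In females, Plin2 and Scd2 rose in the KO-labelled libraries and the core enzymes of palmitate synthesis did not pass the test. Of the 9 genes, 2 passed at an adjusted p under 0.05 (edgeR's quasi-likelihood test, Benjamini-Hochberg over 14036 genes), both higher, against 2.27% of all genes in either direction and 1.29% higher. The 3 KO-labelled libraries were all above the 3 Hetz libraries for 4 of the 9, namely Srebf1, Scd2, Elovl5 and Plin2, and below them for 0, against 12.1% of all genes above and 10.1% below. At an unadjusted p under 0.05 there were 4, the same genes, all higher, against 17.9% of all genes in either direction and 8.89% higher. The median log2 fold change of the 9 was 0.37, against 0.0044 over all genes tested. Since these are bulk samples, a change in the number of cells of a type and a change in RNA per cell cannot be told apart.

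In males, 0 of the 9 genes passed edgeR's test, against 0.861% of 13361 genes tested. At an unadjusted p under 0.05 there were 3, Plin2, Elovl6 and Elovl5, all higher, against 12.4% of all genes in either direction and 7.31% higher, and DESeq2 and limma voom also called 0. The libraries of the genotypes lay apart for 3 of the 9, Plin2 and Elovl6 higher and Acaca lower, against 9.37% of all genes higher, 7.8% lower and 17.2% in either direction. The median log2 fold change was 0.26, against 0.011 over all genes.

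Over both sexes, with the within-sex differences averaged in a fit of all 12 libraries, Plin2 and Elovl5 passed, 2 of 9, both higher, against 3.41% of 14772 genes in either direction and 2.15% higher. At an unadjusted p under 0.05 there were 4, with Scd2 and Srebf1, all higher, against 17.0% of all genes in either direction and 9.04% higher. No test showed that the sexes differed: the difference between the female and the male change passed edgeR's test for 0 of the 9, against 0.00677% of all genes, and DESeq2 and limma voom also called 0 of the 9. At an unadjusted p under 0.05 that difference gave 2 of the 9, Plin2 and Fasn, both larger in females, against 5.99% of all genes in that direction and 12.4% in either.

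**Figure D1:**
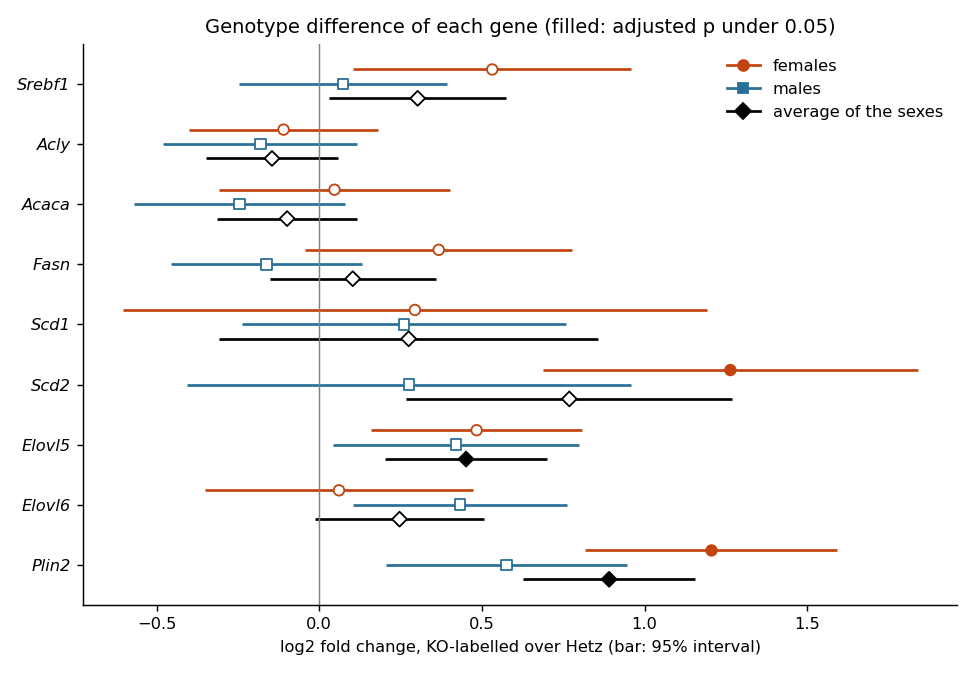
Log2 fold change of KO-labelled over Hetz libraries for each gene, in females, in males and averaged over the sexes, with 95% intervals; filled symbols passed at an adjusted p under 0.05. Plin2 and Scd2 are filled in females, none in males, and Plin2 and Elovl5 for the average.

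The plot of log2 fold changes shows that the intervals for Acly, Acaca, Scd1 and Elovl6 cross 0 in females, as does that of Fasn. In males those of Elovl5, Elovl6 and Plin2 lie above 0 without passing the adjustment over all genes.

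The 250 bases before the RefSeq starts of Plin2 and Elovl5, which passed, are shown with those of Fasn, the central enzyme, for comparison (GRCm38.p6, 5′ to 3′ on the strand of each gene). Capitals mark CCAAT on either strand (CCAAT or its reverse complement ATTGG, the NF-Y site) and CACGTG (the E-box, read by USF and MYC family factors and others). The Plin2 window is chr4:86670060-86670309 on the minus strand, the Elovl5 window chr9:77917115-77917364 on the plus strand and the Fasn window chr11:120824548-120824797 on the minus strand.
Plin2: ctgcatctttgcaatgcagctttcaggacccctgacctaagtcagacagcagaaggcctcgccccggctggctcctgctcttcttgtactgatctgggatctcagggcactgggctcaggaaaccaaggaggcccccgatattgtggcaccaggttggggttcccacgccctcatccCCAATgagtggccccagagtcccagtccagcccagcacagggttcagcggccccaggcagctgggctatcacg
Elovl5: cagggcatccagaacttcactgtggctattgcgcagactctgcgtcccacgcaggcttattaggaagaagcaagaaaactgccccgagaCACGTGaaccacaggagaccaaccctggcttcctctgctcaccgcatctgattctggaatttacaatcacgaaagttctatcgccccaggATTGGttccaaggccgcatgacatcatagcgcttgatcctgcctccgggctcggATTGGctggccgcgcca
Fasn: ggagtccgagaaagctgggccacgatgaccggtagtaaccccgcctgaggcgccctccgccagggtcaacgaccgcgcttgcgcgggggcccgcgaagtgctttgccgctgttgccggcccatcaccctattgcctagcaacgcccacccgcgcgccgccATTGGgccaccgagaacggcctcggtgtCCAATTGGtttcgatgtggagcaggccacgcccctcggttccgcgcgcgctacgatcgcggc
Plin2 has 1 CCAAT, 73 to 69 bases before the start. Elovl5 has 1 CACGTG, 161 to 156 bases before the start, and 2 CCAAT on the opposite strand. Fasn has 3 CCAAT, of which 1 on the gene's own strand shares bases with 1 on the opposite strand. Of 32851 promoter windows of this length, 33.8% hold a CCAAT and 6.02% a CACGTG. The sterol regulatory element TCACNCCAC (1.05% of windows, both strands) was searched together with the antioxidant response element core TGACNNNGC (10.2%) and the direct repeat 1 bound by PPAR (0.338%). None of the 3 was found in the 9 windows of 7 genes, of which 3 windows belong to Srebf1. Scd1 and Scd2, of which Scd2 passed in females, have no window here. The Acaca window, chr11:84195188-84195437 on the plus strand, lies inside the gene model, which begins at 84129672. The Srebf1 windows 60220628-60220877 and 60210472-60210721 also lie inside their gene model, 60199089-60222581 on the minus strand. The Elovl6 window ends at 129532385, past the start of its model at 129532355. GGGCGG (32.7%) was found in windows of Srebf1 and Acly. A match is a match of letters only. Each element was searched in 1 spelling, so other forms of a site would be missed. Absence therefore concerns only that spelling in these windows.

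Levels of different genes were compared per exon length, as TPM, a share of transcripts corrected for exon length. Acly was the most abundant of the 9 over the 12 libraries at 76.6 ± 6.95 TPM (SD, n = 12), and its lowest library held 67.7 TPM. Scd1 (48.6 TPM), Elovl5 (48.5), Plin2 (48.3), Srebf1 (42.8) and Fasn (41.1) followed with libraries that overlapped from each to the next. Elovl6 at 18.0 TPM and Scd2 at 14.7 TPM came next and overlapped each other, and every library of Elovl6 was below every library of Fasn. Acaca, at 3.59 ± 0.373 TPM (SD, n = 12), was the lowest in all 12 libraries.

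The order within a group was the same at both ends in 3 groups, with Acly first and Acaca last. In the female KO-labelled group Plin2 stood first at 101 ± 15.9 TPM (SD, n = 3), with each of its libraries above each of Acly at 74.5 ± 2.13 TPM. In female Hetz libraries Plin2 was the third at 43.0 ± 12.2 TPM, overlapping Scd1 above and Elovl5 below it. In both male groups it was the sixth, at 19.5 ± 2.12 TPM in Hetz and 29.3 ± 5.91 TPM in KO-labelled libraries. The ratio of Plin2 to Fasn, both in TPM, therefore ran from 0.379 in a male Hetz library to 2.48 in a female KO-labelled one.

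**Figure D2:**
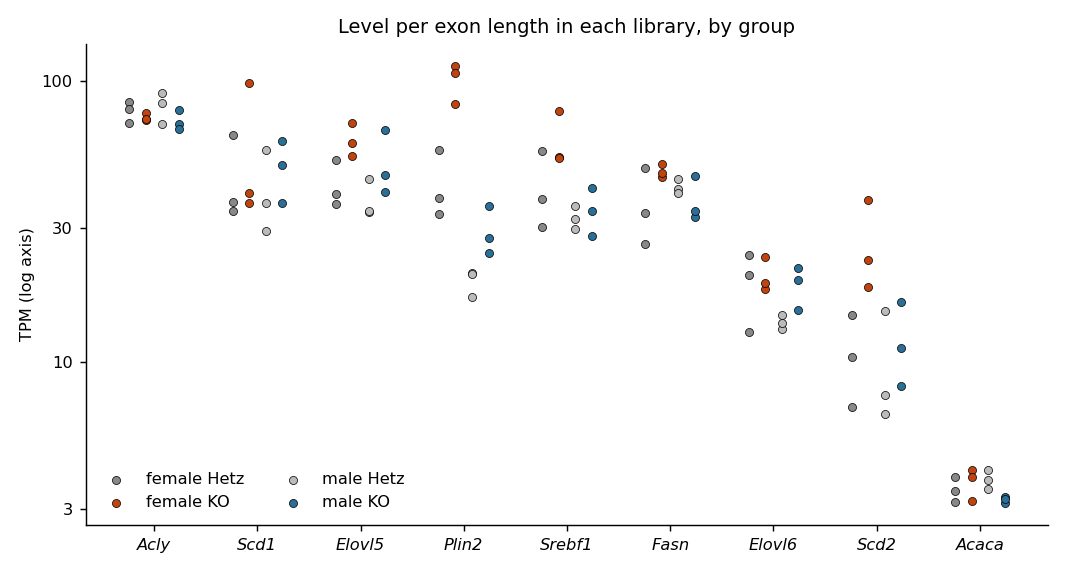
TPM of each gene in each library on a log axis, genes ordered by their mean over 12 libraries and libraries coloured by group. Acly is high and narrow, Acaca is lowest throughout, and Plin2 spans from 17.1 to 113 TPM.

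The plot of TPM by group shows how unlike the spreads are: Plin2 covered 17.1 to 113 TPM over the 12 libraries, whereas Acly stayed between 67.7 and 90.7 TPM.

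Srebf1, which encodes SREBP1, lies on chromosome 11 (60199089-60222581, GRCm38, minus strand). It measured 66.6, 88.8 and 50.9 CPM in female Hetz libraries and 118, 89.9 and 91.5 CPM in female KO-labelled ones. The groups lay only just apart, with Hetz165 a little below KO178. The log2 fold change was 0.53 ± 0.197 (SE, n = 3 and 3) and did not pass edgeR's test (adjusted p = 0.193). It passed without Hetz165 (adjusted p = 0.0181) and with no filter on low counts (adjusted p = 0.0285). In males Srebf1 measured 54.5, 65.1 and 63.2 CPM in Hetz and 63.8, 54.0 and 74.0 CPM in KO-labelled libraries, which overlapped, with a log2 fold change of 0.07 (edgeR adjusted p = 0.899).

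Of the 18 other regulators of lipogenesis tested, 0 passed edgeR's test in females (6 at an unadjusted p under 0.05, 1 by DESeq2, 0 by limma voom) and 0 in males (3 unadjusted, 0 by DESeq2 and by limma voom). Of the 6 in females 4 were higher. Over all genes, an unadjusted p under 0.05 was reached by 17.9% in females, 12.4% in males and 17.0% in the average. The unadjusted counts of the lists below stand against the same shares. Insig2, whose product holds SREBP precursors in the endoplasmic reticulum, had the smallest p in females, at a log2 fold change of -0.48 (edgeR adjusted p = 0.11). Insig2 was also the gene that DESeq2 called. In males it measured 416, 426 and 510 CPM in Hetz and 540, 485 and 478 CPM in KO-labelled libraries, which overlapped, with a higher mean in the KO-labelled ones. Scap, which escorts the precursors to the Golgi, had the smallest p in males, at -0.51 (edgeR adjusted p = 0.206). Rxra, a partner of nuclear receptors such as LXR, had it in the average at 0.43 (edgeR adjusted p = 0.0811). In the average 0 of the 18 passed edgeR's test (5 unadjusted, 0 by limma voom), and DESeq2 called 2, Rxra and Prkaa2, both higher. For the difference between the sexes edgeR called 0 of the 18, and DESeq2 called 2, Insig2 and Scap.

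The 3 enzymes that lead to palmitate, Acly, Acaca and Fasn, all lie on chromosome 11, as does Srebf1, and none passed in either sex. Acly (100476353-100528000, minus strand) measured 138, 117 and 112 CPM in female Hetz and 108, 114 and 118 CPM in female KO-labelled libraries. In males it measured 121, 154 and 152 CPM in Hetz and 122, 141 and 113 CPM in KO-labelled libraries. The groups overlapped in both sexes. The averaged log2 fold change was -0.15 with a 95% interval from -0.35 to 0.06 (edgeR adjusted p = 0.469).

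Acaca (84129672-84401651, plus strand) encodes the carboxylase that makes malonyl-CoA. It measured 16.9, 18.7 and 17.9 CPM in female Hetz and 18.8, 16.3 and 20.3 CPM in female KO-labelled libraries, which overlapped. In male libraries Acaca was at 21.0, 22.8 and 21.0 CPM in Hetz and 17.7, 19.2 and 17.6 CPM in KO-labelled libraries. The male KO-labelled libraries were thus all below the Hetz ones, at a log2 fold change of -0.25 ± 0.15 (SE, n = 3 and 3) that did not pass edgeR's test (adjusted p = 0.575).

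Fasn (120805846-120824547, minus strand) measured 115, 150 and 86.4 CPM in female Hetz and 134, 153 and 169 CPM in female KO-labelled libraries. Male libraries held 146, 158 and 152 CPM in Hetz and 118, 129 and 159 CPM in KO-labelled libraries. Both pairs of groups overlapped. These gave log2 fold changes of 0.37 in females (edgeR adjusted p = 0.331) and -0.16 in males (edgeR adjusted p = 0.696), and their difference of 0.54 did not pass (edgeR adjusted p = 0.383). Fasn passed in females without Hetz165, the highest of its Hetz libraries (adjusted p = 0.0368). The summed TPM of Acly, Acaca and Fasn stayed between 101 and 140 in the 12 libraries, from 101 to 133 in female Hetz and 123 to 128 in female KO-labelled ones.

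Among 13 further genes of precursor supply and fatty acid synthesis tested in females, 2 passed, both higher, and in males 1 of 12. Me1 encodes the cytosolic malic enzyme that supplies NADPH. It measured 13.9, 14.4 and 11.1 CPM in female Hetz and 49.3, 63.4 and 63.3 CPM in female KO-labelled libraries. Male values were 12.1, 6.91 and 7.20 CPM in Hetz and 33.4, 32.6 and 28.2 CPM in KO-labelled libraries. The groups were far apart in both sexes, at log2 fold changes of 2.16 in females (edgeR adjusted p = 1.489e-05) and 1.86 in males (edgeR adjusted p = 0.0006972), and Me1 passed without each library in turn. Acot7, an acyl-CoA thioesterase that releases fatty acids, rose by 0.86 on the log2 scale in females (edgeR adjusted p = 0.0181), a call kept without 2 of the 6 libraries in turn and lost without the others and in the fit of 12 libraries.

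Scd1 and Scd2, which place the first double bond into stearate and palmitate, are neighbours on chromosome 19, at 44394455-44407879 (minus strand) and 44293674-44306864 (plus strand). Their products are close paralogs, and how fragments that map to both were counted is not given in the sources used here, so the split between them is uncertain to that degree. Scd2 measured 11.7, 22.4 and 17.1 CPM in female Hetz and 55.0, 30.1 and 38.5 CPM in female KO-labelled libraries. All KO-labelled libraries were higher than all Hetz ones, at a log2 fold change of 1.26 ± 0.263 (SE, n = 3 and 3, a fold of 2.40, edgeR adjusted p = 0.0304). The call ended without Hetz164 (adjusted p = 0.102), Hetz181 (0.138), KO166 (0.116) or KO188 (0.0827), and in the fit of all 12 libraries (0.0537), while the log2 fold change stayed between 1.0 and 1.52.

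In males Scd2 measured 11.6, 26.6 and 14.5 CPM in Hetz and 20.2, 15.3 and 28.2 CPM in KO-labelled libraries, which overlapped. The log2 fold change was 0.28 (edgeR adjusted p = 0.793). The difference between the sexes was 1.0 with a 95% interval from -0.00077 to 2.0 and did not pass (edgeR adjusted p = 0.403). The averaged change of 0.77 did not pass either (edgeR adjusted p = 0.0974), though it did with DESeq2 (0.0144), with no filter on low counts (0.000599) and without Hetz245 (0.0192).

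Scd1 measured 52.1, 50.8 and 94.6 CPM in female Hetz and 129, 53.6 and 59.5 CPM in female KO-labelled libraries. In male libraries Scd1 was at 46.5, 89.2 and 62.4 CPM in Hetz and 81.0, 61.1 and 94.5 CPM in KO-labelled libraries. The genotypes overlapped in both sexes, and the spread within each group was wide. The log2 fold change was 0.29 ± 0.385 (SE, n = 3 and 3) in females (edgeR adjusted p = 0.737) and 0.26 in males (edgeR adjusted p = 0.712), and the female value changed sign to -0.22 without KO166. The female libraries with the highest Scd1, KO166 and Hetz181, also had the highest summed myofibre markers, at 680 and 346 CPM against 127 to 268 CPM in the other 4. They had the highest Car3 too, a carbonic anhydrase gene of muscle fibres and fat that was singled out after its values were seen, at 19.5 and 21.4 CPM against 3.39 to 5.51 CPM. In males the highest Scd1 libraries, KO255 and Hetz245, had summed myofibre markers of 72.1 and 65.2 CPM, while KO240 had the most at 144 CPM. The part of these markers in Scd1 was not tested.

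Of the summed TPM of Scd1 and Scd2, Scd2 made up 16.8, 28.3 and 14.0% in female Hetz and 27.6, 33.5 and 36.7% in female KO-labelled libraries. In males the share was 18.3, 21.1 and 17.2% in Hetz and 18.3, 18.3 and 21.1% in KO-labelled libraries. The groups overlapped in both sexes, in females through KO166, which lay just below Hetz165. Scd1 was above Scd2 per length in all 12 libraries.

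Elovl5, which elongates polyunsaturated chains, lies on chromosome 9 (77917364-77984519, plus strand). It measured 43.3, 51.7 and 38.5 CPM in female Hetz and 66.5, 62.8 and 57.8 CPM in female KO-labelled libraries, which did not overlap. Male Elovl5 was at 39.2, 50.9 and 42.2 CPM in Hetz and 53.7, 48.3 and 74.4 CPM in KO-labelled libraries, where KO247 fell below Hetz245. The log2 fold changes were of like size in females, 0.48 (edgeR adjusted p = 0.124), and in males, 0.42 (edgeR adjusted p = 0.347), with a difference of 0.07 and a 95% interval from -0.42 to 0.57. The average of 0.45 ± 0.118 (SE, n = 6 and 6, a fold of 1.37) passed edgeR's test (adjusted p = 0.0439). That call held in 3 of 12 fits that each left out 1 library, those without Hetz165, Hetz245 or KO247, and ended in the other 9 (adjusted p from 0.0646 to 0.126).

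Elovl6, which lengthens palmitate to stearate, lies on chromosome 3 (129532355-129638495, plus strand). It measured 25.5, 43.1 and 39.2 CPM in female Hetz and 40.6, 34.7 and 37.6 CPM in female KO-labelled libraries, which overlapped. Male libraries were at 30.6, 27.0 and 30.8 CPM in Hetz and 41.4, 33.4 and 44.0 CPM in KO-labelled libraries, which did not. Log2 fold changes were 0.06 in females (edgeR adjusted p = 0.896) and 0.43 in males (edgeR adjusted p = 0.264).

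Of the 19 other elongation and desaturation genes tested, 0 passed edgeR's test in females (5 at an unadjusted p under 0.05, 2 by DESeq2, 0 by limma voom) and 0 in males (3 unadjusted, 0 by DESeq2 and by limma voom). Of the 5 in females 3 were higher, and the unadjusted share of all genes was 17.9% in females and 12.4% in males. Fads1, the desaturase that acts after ELOVL5 on polyunsaturated chains, had the smallest p in females. It measured 12.5, 14.1 and 15.3 CPM in Hetz and 31.1, 20.2 and 19.9 CPM in KO-labelled libraries, which did not overlap, at a log2 fold change of 0.77 (edgeR adjusted p = 0.0744). Hacd3, a dehydratase of the elongation cycle, had the smallest p in males at 0.41 (edgeR adjusted p = 0.203), and Cyb5a, the cytochrome that passes electrons to desaturases, had it in the average at 0.58 (edgeR adjusted p = 0.0506). In the average 0 of the 19 passed edgeR's test, whereas limma voom called 1, Cyb5a, and DESeq2 called 2, Cyb5a and Elovl4. At an unadjusted p under 0.05 there were 8 of the 19, 5 of them higher, against 17.0% of all genes in either direction.

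Plin2, which coats lipid droplets in most cells other than adipocytes, lies on chromosome 4 (86648386-86670060, minus strand) and had the smallest p of the 9 genes in each sex. In females it measured 36.7, 55.8 and 40.4 CPM in Hetz and 106, 86.8 and 115 CPM in KO-labelled libraries. The groups were well apart, the lowest KO-labelled library lying above the highest Hetz one. The log2 fold change was 1.21 ± 0.179 (SE, n = 3 and 3, 95% interval 0.82 to 1.59), a fold of 2.31 (edgeR adjusted p = 0.00295). It passed without each of the 6 libraries in turn, at adjusted p from 0.000507 to 0.0265.

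In males Plin2 measured 23.7, 19.2 and 25.0 CPM in Hetz and 31.8, 29.2 and 39.9 CPM in KO-labelled libraries. The groups did not overlap here either. The log2 fold change of 0.58 ± 0.171 (SE, n = 3 and 3) did not pass edgeR's test (adjusted p = 0.181), nor did it without any library in turn (adjusted p from 0.0716 to 0.466). The average over the sexes was 0.89 ± 0.125 (SE, n = 6 and 6, edgeR adjusted p = 0.000296) and passed in all 12 fits that left out 1 library. The female change exceeded the male one by 0.64, with a 95% interval from 0.11 to 1.16, which did not pass the adjustment over all genes (edgeR adjusted p = 0.317).

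Plin2 also differed between the sexes in Hetz libraries, at a log2 difference of 0.97 ± 0.179 (SE, n = 3 and 3) higher in females (edgeR adjusted p = 0.00272). It was the only 1 of the 9 to pass in that comparison, against 10.2% of all genes in either direction and 4.72% higher. The libraries lay apart for Plin2 (higher) and Acaca (lower), against 13.7% of all genes higher, 15.4% lower and 29.1% in either direction. Sex and count table cannot be told apart in these values. For 9 of 9 myofibre markers tested the female Hetz libraries also lay above the male Hetz ones, 2 passing edgeR's test, with summed levels of 127 to 346 against 50.7 to 65.2 CPM. All 10 endothelial markers passed as lower in females. The part of either list in the Plin2 difference was not tested. The male KO-labelled libraries, up to 39.9 CPM, overlapped the female Hetz ones, which began at 36.7 CPM.

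**Figure D3:**
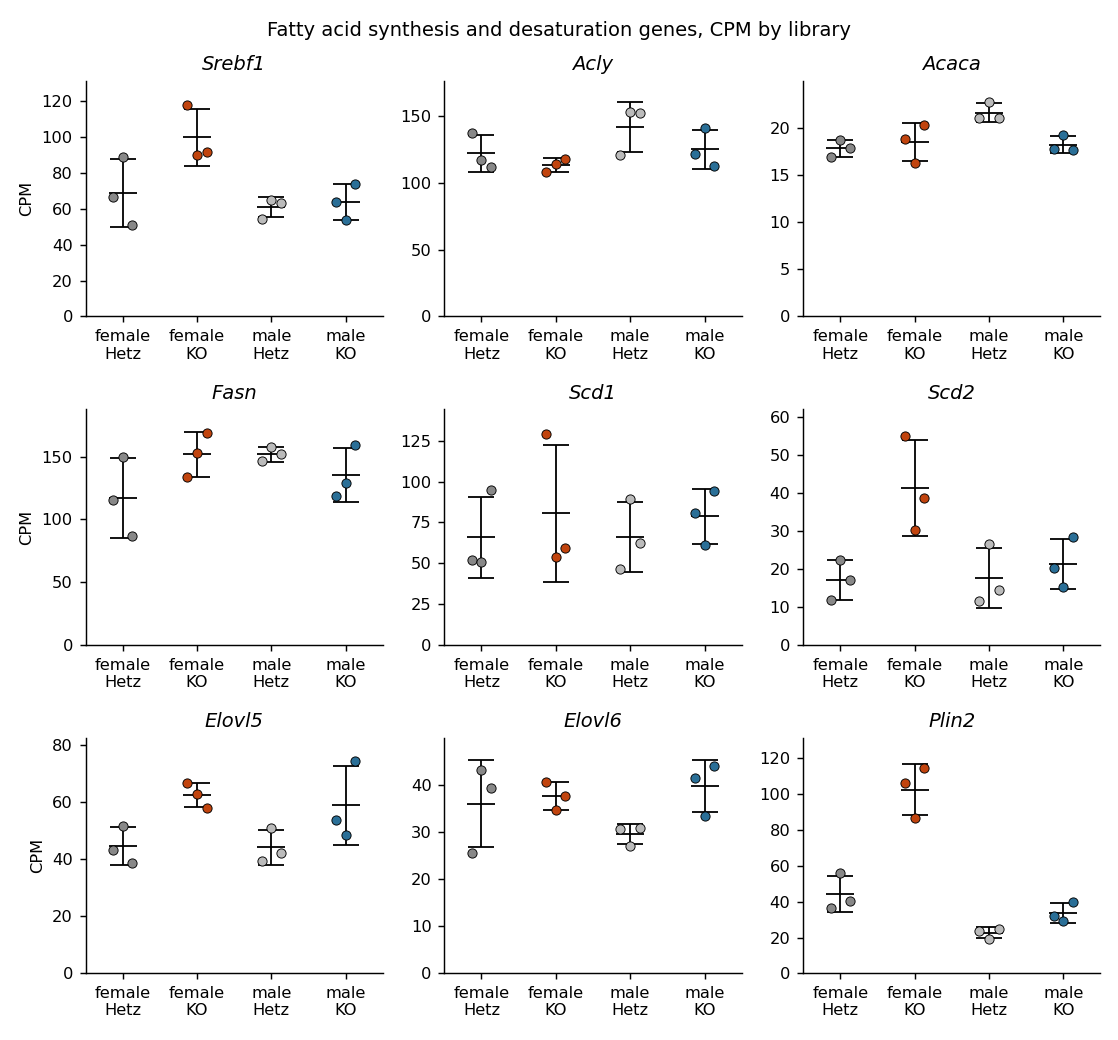
CPM of each gene in each library, from 0, by sex and genotype label, with the mean and SD of 3 libraries per group. Plin2 and Scd2 stand apart in female KO-labelled libraries, while Acly and Acaca show little change.

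The plot of CPM by library also shows single high libraries, KO166 for Srebf1, Scd1 and Scd2 in females and KO255 for Elovl5 in males. Without KO166 the female Plin2 value was 1.18 (edgeR adjusted p = 0.0227). Without KO255 the male Elovl5 value was 0.21 (edgeR adjusted p = 0.557). KO255 also had the highest summed endothelial and Schwann cell markers of the 12 libraries, at 358 and 361 CPM. The part of these markers in the male values was not tested.

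Several measures of the libraries moved along with Plin2 in females. Of the 10 adipocyte markers, 7 were under 1 CPM in all 12 libraries, namely Adipoq, Plin1, Cidec, Lep, Retn, Cfd and Pck1. The summed adipocyte list was 25.0 to 39.3 CPM in female Hetz and 47.1 to 57.9 CPM in female KO-labelled libraries, and 28.5 to 36.3 and 27.9 to 37.9 CPM in males, most of it from Lpl and Car3. Satellite cell markers were lower in female KO-labelled libraries, where 2 of 10, Cd34 and Chrdl2, fell. Leukocyte markers were lower there too, where 2 of 9 tested, Cd74 and Lyz2, fell. The share of all genes that passed in females was 2.27% in either direction. In males Chrdl2 also fell, 1 of 10 satellite cell markers, against 0.861% of all genes in either direction. The summed satellite cell markers of the male groups overlapped. The mitochondrial ribosomal RNAs mt-Rnr1 and mt-Rnr2 took 0.302 to 0.507% of counts in female Hetz and 0.733 to 1.03% in female KO-labelled libraries. In males these shares were 0.409 to 0.601% in Hetz and 0.226 to 0.407% in KO-labelled libraries, the group with the higher Plin2. Within each male group the library with the highest Plin2, Hetz249 and KO255, also had the highest share. The part of these measures in the female results was not tested.

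The genes around Plin2 in droplet biology did not pass edgeR's test in either sex, and 1 passed in the average, in the opposite direction. Of 23 tested genes of triglyceride synthesis and the droplet, 0 passed edgeR's test in females (2 at an unadjusted p under 0.05, 1 by DESeq2, 0 by limma voom), and of 22 in males 0 passed (2 unadjusted, 0 by both other tools). Pnpla2, the lipase that starts triglyceride breakdown, had the smallest p in females at a log2 fold change of 0.77 (edgeR adjusted p = 0.115). Plin3, another droplet coat protein, had it in males at 0.54 (edgeR adjusted p = 0.165). In the average Dgat1, which makes triglyceride, fell by 0.41 on the log2 scale (edgeR adjusted p = 0.0396), and that call held without 3 of the 12 libraries in turn.

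Of 18 genes of fatty acid uptake, binding and activation tested in females, 1 passed, and of 19 in males 0 (2 unadjusted, 0 by DESeq2 and by limma voom). Lpl, which frees fatty acids from circulating lipoproteins, measured 17.6, 23.0 and 14.8 CPM in female Hetz and 33.7, 45.3 and 40.2 CPM in female KO-labelled libraries. These did not overlap, and the log2 fold change was 1.10 (edgeR adjusted p = 0.00787, 0.0571 without Hetz164). In males it measured 20.9, 28.8 and 21.6 CPM in Hetz and 23.5, 21.8 and 26.4 CPM in KO-labelled libraries, which overlapped. The difference of 1.10 between the sexes did not pass edgeR's test (adjusted p = 0.122), and Lpl was among the genes that DESeq2 called for that difference.

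Genes of fatty acid oxidation gave 0 of 23 in females by edgeR (7 at an unadjusted p under 0.05, 3 by DESeq2, 0 by limma voom) and 0 of 24 in males (2 unadjusted, 0 by both other tools). Of the 7 in females 5 were higher. The unadjusted share of all genes was 17.9% in females, 12.4% in males and 17.0% in the average. Acadl, the long-chain acyl-CoA dehydrogenase, had the smallest p in females at a log2 fold change of 0.63 (edgeR adjusted p = 0.103). In the average 0 of 24 passed edgeR's test (7 unadjusted, 1 by DESeq2, Acadl, 0 by limma voom). PPAR genes, the nuclear receptors of fatty acids and genes known to respond to them, gave 0 of 13 in females (2 unadjusted, 0 by both other tools) and 1 of 13 in males. Ucp2, a mitochondrial carrier, fell by 0.98 on the log2 scale in males (edgeR adjusted p = 0.0259), a call kept without 2 of the 6 libraries in turn. The estimated female change in Ucp2 exceeded the male one by 1.63 ± 0.639 (SE) on the log2 scale. That difference between the sexes did not pass edgeR's test (adjusted p = 0.344), so a different change in females was not shown. Fabp3, a fatty acid binding protein of muscle and a known PPAR target, had the smallest p in females at 1.45 (edgeR adjusted p = 0.172). Its levels were low, at 0.480, 1.59 and 1.16 CPM in Hetz and 5.22, 1.665 and 2.02 CPM in KO-labelled libraries. The groups lay only just apart, and KO166 was far the highest.

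Phospholipid synthesis and remodelling genes gave 0 of 17 in females (2 unadjusted, 0 by DESeq2 and by limma voom) and 1 of 17 in males. Mboat1, a lysophospholipid acyltransferase, rose by 0.97 on the log2 scale in males (edgeR adjusted p = 0.0259), kept without 2 of the 6 libraries in turn. In the average Mboat1 rose by 0.62 and Cds2, which makes CDP-diacylglycerol, by 0.43 (edgeR adjusted p = 0.0267 and 0.0165), calls that held without 4 and 8 of the 12 libraries in turn. Median log2 fold changes of these 8 lists ran from -0.034 to 0.23 in females and from -0.0056 to 0.22 in males, beside 0.37 and 0.26 for the 9 genes.

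**Figure D4:**
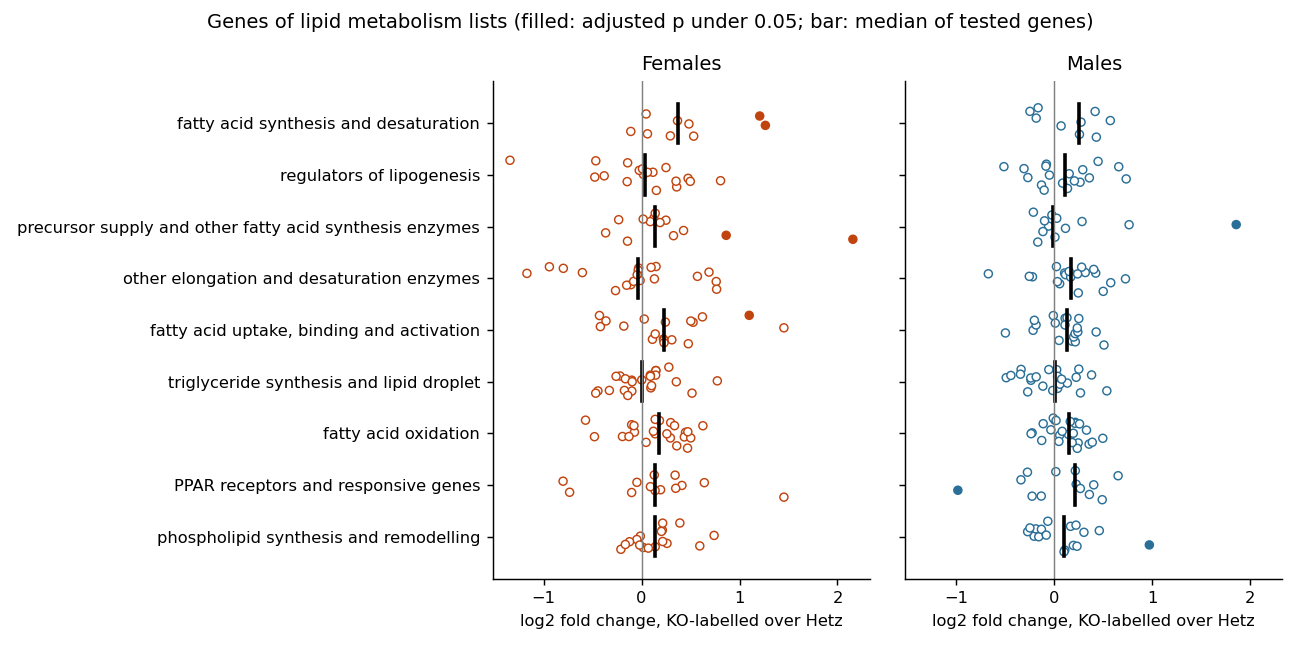
Log2 fold change of KO-labelled over Hetz libraries for the tested genes of the 9 genes described here and 8 other lipid lists, in females and males; filled points passed at an adjusted p under 0.05 and black bars are medians. Filled points are few: 5 in females, with Me1 at 2.16 the farthest right, and 3 in males.

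In the plot of lipid lists most genes lie close to 0 in both sexes, and the filled points of females are Plin2, Scd2, Me1, Acot7 and Lpl.

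For the 3 genes that passed somewhere, Plin2, Scd2 and Elovl5, the most similar patterns were sought by the root mean square difference of log2 CPM, centred within each table, over 12 libraries and 8073 genes with a mean of at least 3 log2 CPM. Among the genes nearest to Plin2 were Esm1 (0.166) and Atp6v0a1 (0.193), where a gene with no change at all would be at 0.512 and the median gene was at 0.553. Esm1, a secreted proteoglycan, measured 30.6 to 33.4 CPM in female Hetz, 53.5 to 78.4 in female KO-labelled, 6.74 to 7.83 in male Hetz and 9.71 to 14.1 CPM in male KO-labelled libraries. None of these ranges overlapped. Of the other 8 genes, Elovl5 came closest to Plin2.

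Scd2 was nearest to Fads1 (0.298), Mms19 (0.311) and Fhl2 (0.324), with a flat gene at 0.603 and the median gene at 0.640. Plin2 stood at position 35 from Scd2, Elovl5 at 53, Srebf1 at 72 and its paralog Scd1 at 398. Elovl5 was nearest to Slc35e4 (0.0930), Fam76a (0.113) and Igbp1 (0.117), with a flat gene at 0.287 and the median gene at 0.354, and Srebf1 at position 98 was the first of the other 8. These positions describe 12 libraries that share groups and depth, and carry no test.

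**Figure D5:**
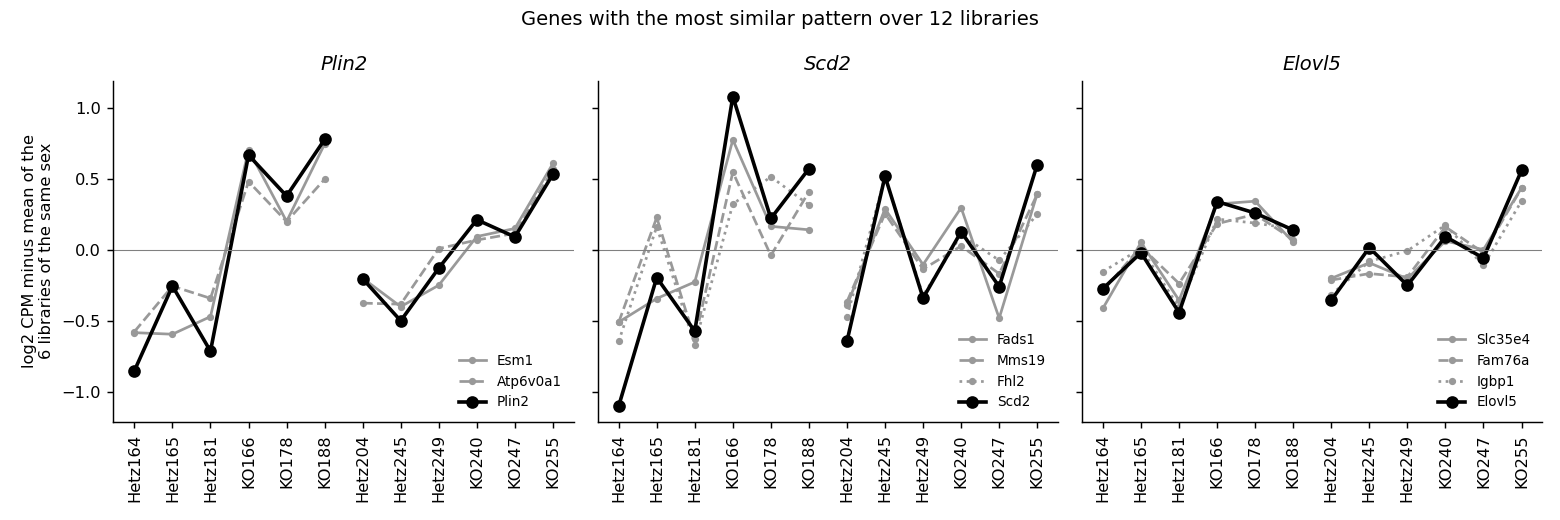
Log2 CPM minus the mean of the 6 libraries of the same sex, per library, for Plin2, Scd2 and Elovl5 (black) and genes among the 3 with the most similar pattern of each (grey). Plin2 and its neighbours are above 0 in all KO-labelled libraries of females, and Scd2 peaks in KO166.

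In the plot of similar patterns, the neighbours of Scd2 are above 0, as Scd2 is, in Hetz245 and KO255 and in KO166 and KO188. Mms19 lies a little below 0 in KO178, and its female groups overlap.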

How the data were processed

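RNA was amplified by the Smart-Seq2 protocol and cut with Tn5, per the labels' protocols. The deposited values are raw counts of fragments over exons per gene, made with featureCounts 2.0.0 and an Ensembl 99 annotation of GRCm38 per the file headers; the submitters' processing notes also name STAR, Subread and DESeq2. All columns hold whole fragment counts, not estimated counts, per the file headers. Strandedness and the handling of multi-mapping fragments are not given in the sources used here. The gene IDs of 55144 of 55385 rows matched a symbol. The 9 genes and all lists were chosen with earlier results of these data known.

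Counts were fitted with edgeR 4.0.16 in R 4.3.3 (robust quasi-likelihood fit, TMM scaling, low genes removed by filterByExpr at its minimum of 10 counts), within each sex and over 12 libraries as 4 group means, with Benjamini-Hochberg adjustment over all genes tested and a threshold of 0.05. SE were taken from the fit. CPM used TMM factors over 12 libraries, and TPM used the deposited exon length, a column in bases. Tested alternatives were RLE normalization, DESeq2 1.42.0, limma voom 3.58.1, no filter, leaving out each library, and a fit of all 12 libraries. The fit was tested on simulated data. No pair of replicates agreed within counting error (12.4 to 65.2 for chi-square over its degrees of freedom). Genes named from a list are those that passed (up to 4, by p), or else the 1 with the smallest p; for up to 4 of the 9 that passed, the 3 most similar genes, of which 1 is not reported here. Car3 was named after its values were seen. Exons of Srebf1, Scd2 and Elovl6 overlap other genes over 3.11%, 1.12% and 0.529% of their length, and those of the other 6 over 0%. Promoter windows are from RefSeq (GRCm38.p6).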

Additional observations from a re-analysis of the deposited data

Results flagged for a closer look

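Scap, whose product escorts SREBP precursors to the Golgi, moved in opposite directions in the sexes, which drew attention to it. It measured 27.0, 26.3 and 16.5 CPM in female Hetz and 32.0, 30.7 and 34.6 CPM in female KO-labelled libraries, all of the latter higher. In males it measured 23.3, 26.9 and 21.8 CPM in Hetz and 15.1, 18.2 and 17.2 CPM in KO-labelled libraries, all of the latter lower. The female change exceeded the male one by 0.99 on the log2 scale (95% interval 0.46 to 1.52), which did not pass edgeR's quasi-likelihood test of the difference (adjusted p = 0.149), while DESeq2 called it. Scap is 1 of 18 regulators of lipogenesis looked at, and was singled out by this pattern.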

How the results depend on the processing

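Plin2 passed in females and in the average under every alternative tried, and in males under none; its values are in the text above. No paired analysis was possible because the label numbers are unique to each library, so the groups share no replicate number. Counts of all genes that passed moved with the tool and filter: in females 319, 707 with DESeq2, 1000 with no filter and 144 to 1479 when 1 library was left out, the most without Hetz165; in males 115, 264, 375 and 41 to 294; in the average 504, 821, 858 and 318 to 931; for the difference between the sexes 1, 243, 358 and 0 to 206. For Hetz females against Hetz males, 1501 became 668 to 1729 when 1 library was left out. Of the 9 genes, the 2 that passed in females became 1 in the fit of all 12 libraries and 1 to 5 when 1 library was left out (5 without Hetz165: Plin2, Scd2, Srebf1, Elovl5 and Fasn), the 2 in the average became 1 to 3, and the 1 between Hetz groups 1 to 2 (with Fasn without Hetz165). Changes of sign were all in values that did not pass. For Scd1 the difference between the sexes was -0.030 with limma voom and -0.47 to 0.40 with 1 library left out, and its Hetz female to male difference was 0.0073 with RLE, 0.011 with DESeq2, 0.0067 with no filter and -0.36 to 0.28 with 1 library left out. With 1 library left out the log2 values ran in females from -0.033 to 0.13 for Acaca, -0.14 to 0.22 for Elovl6 and -0.22 to 0.64 for Scd1, and in males from -0.051 to 0.19 for Srebf1 and -0.30 to 0.12 for Keap1. The difference between the sexes ran from -0.059 to 0.28 for Elovl5. The Hetz female to male difference ran from -0.11 to 0.13 for Elovl5, -0.13 to 0.30 for Keap1, -0.29 to 0.39 for Scd2 and -0.051 to 0.35 for Srebf1. The cause of these shifts was not tested. The order of the 9 genes per length was the same in TPM and RPKM. With 3 libraries per group, modest changes such as that of Elovl5 sit near the threshold.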
